A study of Homo sapiens with 3 samples.

Results

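The comparison described here is that of RNA editing in cells carrying DDX41-ADARcd with editing in cells carrying the empty vector. Its members are all positions of the deposited A-to-G site list for this pair of libraries, with entries repeating a chromosome and position joined into 1 site. That gave 3516 sites in 957 genes, of 16820 positions in the 3 site lists of the series. HyperTRIBE libraries were made from THP-1, an established human monocytic leukemia line grown in RPMI with serum and antibiotics. The groups were cells transduced with empty pGK-GFP retrovirus, cells given the ADAR catalytic domain without a partner (ADARcd alone), and cells given DDX41 fused to that domain. All 3 groups were transduced with supernatants produced in 293T cells and were harvested for total RNA at day 7, and each group is 1 library. A test therefore compares the reads of 2 libraries and not the conditions.

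HyperTRIBE joins an RNA-binding protein to a hyperactive deaminase domain of ADAR, which turns adenosine into inosine in RNA close to the bound protein. Inosine is read as G after reverse transcription, so a binding site is sought as an A-to-G mismatch that control cells lack. DDX41 is a DEAD-box helicase associated with the spliceosome, with snoRNA processing, with the handling of R-loops and with nucleic acid sensing upstream of STING, and its gene is recurrently mutated in myeloid leukemia.

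A site entered the list with 1 or more edited reads in DDX41-ADARcd, and with 0 edited reads among 10 or more in the empty vector. A-to-G reads of these libraries are thus what chose the sites, and their levels describe the list. The reads of ADARcd alone at the same positions, A-to-C and A-to-T mismatches, neighbouring bases and gene regions were not used in the choice. Read depth was used, since the empty vector needed 10 or more reads. Depth in DDX41-ADARcd also bears on the list, because 1 edited read was enough to enter a position. Of the 16 monocytic marker genes examined, 9 had listed sites, among them LYZ, SPI1, SPN, PRTN3 and AZU1. Of 12 markers of other lineages, 0 had any. A gene without a listed site may still be expressed, so CD14 and CD33, which had none, cannot be judged from a site list.

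The sites with most edited reads fall into a few kinds, and their sequences show what distinguishes them. Each run gives 21 bases of the GENCODE 29 transcript on GRCh38, 5′ to 3′, with the listed base in capitals at position 11. Positions in the names are on the chromosome given beside each set. The first set comes from 3′ UTRs on chromosome 6 (RPL7L1 and TAPBP) and chromosome 16 (SPN), and is shown because these 3′ UTRs held several of the higher levels.
RPL7L1 at 42888216: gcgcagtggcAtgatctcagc
RPL7L1 at 42888380: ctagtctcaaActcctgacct
TAPBP at 33301530: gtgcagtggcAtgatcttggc
SPN at 29665299: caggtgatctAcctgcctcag
SPN at 29665325: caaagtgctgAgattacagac
The 15 bases around the RPL7L1 site at 42888216 occur in transcripts of 324 genes, and their reverse complement in those of 237. For SPN at 29665325 these counts were 303 and 232, and for SPN at 29665299 they were 27 and 25.

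The second set lies in coding exons of abundant transcripts, and is shown because editing was much higher with ADARcd alone. FTL is on chromosome 19, EEF1A1 on chromosome 6, RPS2 on chromosome 16, RPSA on chromosome 3 and SRP14 on chromosome 15.
FTL at 48966635: aagcttatcaAgaagatgggt
EEF1A1 at 73518602: tggtattggtActgttcctgt
EEF1A1 at 73518527: agtcaacgttAcaacggaagt
RPS2 at 1962502: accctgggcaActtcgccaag
RPSA at 39412344: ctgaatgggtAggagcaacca
SRP14 at 40036482: aaacctccttAgagctaacat
At each of these 6 sites the base before the edited A is A or U (T in these letters).

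The third set is shown because the reference transcript does not have A. RARS is on chromosome 5 and HLA-B on chromosome 6.
RARS at 168510602: aaacacgttcGggtgaaacag
HLA-B at 31355219: gatgggagccGtcttcccagt
At both positions the change from the reference letter to the letter read in the empty vector is G11A, counted from the 5′ end of the window. Of the 3374 sites on an annotated transcript, 99.9% have A. So at RARS and HLA-B the edited reads of DDX41-ADARcd carry the reference letter.

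The last set gives neighbouring sites in ND4 on the mitochondrial genome and a site in SCARNA21 on chromosome 17, a small Cajal body RNA inside CHD3.
ND4 at 10945: accccctaacAacccccctcc
ND4 at 10946: ccccctaacaAcccccctcct
SCARNA21 at 7906249: gggctgtcctAgcctcacatt
The ND4 sites lie between runs of C.

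Most listed sites rested on a single edited read. There were 2865 such sites, or 81.5% of the list (exact 95% interval 80.2 to 82.8). A further 570 sites had 2 edited reads, 51 had 3 or 4, and 30 sites in 19 genes had 5 or more. The highest level was 67.9% and the lowest 0.0133%, and 2427 sites (69.0%) were edited in under 1% of reads. The median level was 0.515% (0.488 to 0.546), and only 11 sites reached 10%. In the plot of level against depth the sites with 1 edited read form a line, because their level is 1 divided by the depth. Intervals here and below cover counting error alone, since reads without molecular identifiers are not independent molecules.

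**Figure D1:**
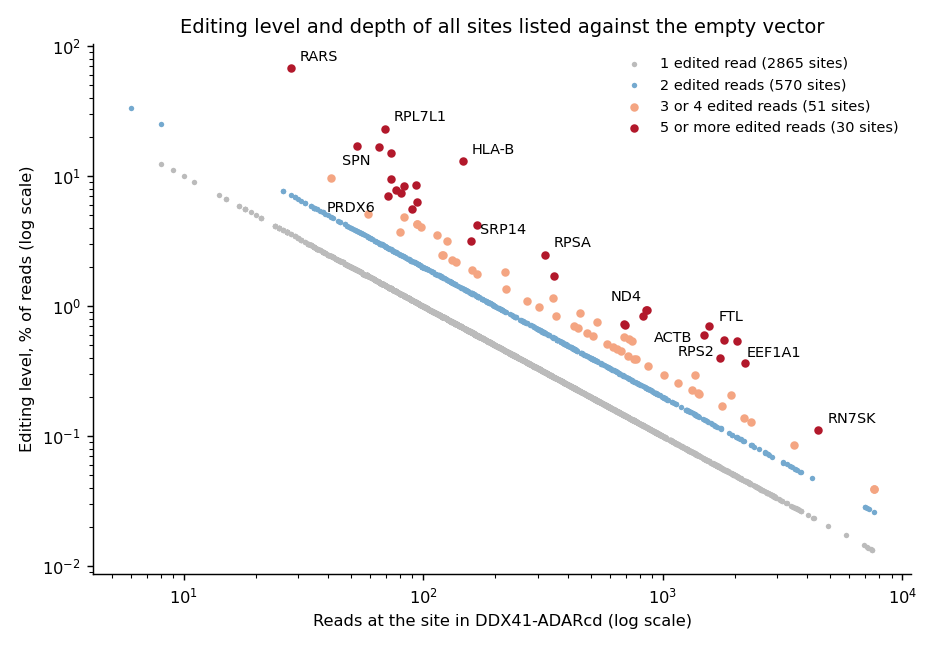
Editing level (percent of reads, log scale) against reads in DDX41-ADARcd (log scale) for the 3516 listed sites, coloured by the number of edited reads, with the highest site of some genes named. The 2865 sites with 1 edited read form the lowest diagonal line, and the 30 sites with 5 or more lie above the others of like depth, from RN7SK at 0.112% to RARS at 67.9%.

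The empty vector was much shallower than the fusion at these positions. DDX41-ADARcd had a median of 220 reads per site (quartiles 93.75 and 569), ADARcd alone 321 and the empty vector 30. With 0 edited reads, that depth of the empty vector allows a level of up to 10% (3 reads of its depth, the median over sites). The level in DDX41-ADARcd was below the limit set by the site's own depth in the empty vector at 3508 of 3516 sites, and at 27 of the 30 best-supported sites, those of 5 or more edited reads. By a two-sided Fisher's exact test with Benjamini-Hochberg adjustment, 0 of 3512 sites with 10 or more reads in each library (0%) passed 0.05. At an unadjusted p under 0.05 there were 3 sites (0.0854%), namely RARS, HLA-B and RPL7L1 at 42888216. Without positions of another reference letter than A, which drops RARS and HLA-B, 1 was left. The A-to-G reads compared here chose the list, with the empty vector fixed at 0, so the test singles out no site. At the median depth, 28 edited reads (12.7%) would be needed to reach an unadjusted p of 0.05, so lower levels were not separable from the empty vector at this depth.

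RARS, the arginyl-tRNA synthetase, had the highest level of the list. It had 19 edited of 28 reads in DDX41-ADARcd (67.9%, exact interval 47.6 to 84.1) and 0 of 10 in the empty vector, where 0 allows up to 30%. ADARcd alone had 23 of 36 (63.9%, 46.2 to 79.2). At HLA-B, a classical MHC class I heavy chain, the reads were 19 of 146 in DDX41-ADARcd (13.0%), 0 of 27 in the empty vector and 27 of 209 in ADARcd alone (12.9%). The intervals of the libraries with ADARcd overlapped at both positions.

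SPN, which encodes the leukocyte surface sialoglycoprotein CD43, held the densest stretch of sites with several edited reads. It had 20 sites and 12 of them lay within 64 bases of its 3′ UTR. At 29665299 there were 11 edited of 65 reads in DDX41-ADARcd (16.9%, 8.76 to 28.3), 0 of 12 in the empty vector and 30 of 124 in ADARcd alone (24.2%, 17.0 to 32.7). At 29665318 they were 11 of 73 (15.1%), 0 of 14 and 30 of 137 (21.9%). The other 4 SPN sites with 5 or more edited reads had 6.38% to 9.59% in DDX41-ADARcd, and ADARcd alone was higher at each of the 6. None of these 6 differences passed the Fisher's exact test against ADARcd alone (adjusted p from 0.560 to 0.895). The coding exon had 1 SPN site, with 1 edited of 108 reads.

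**Figure D2:**
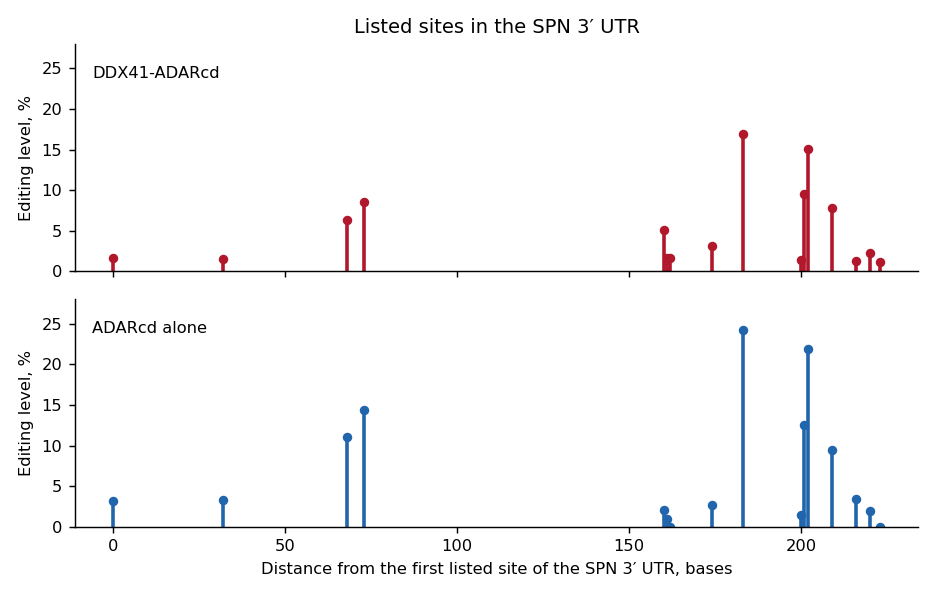
Editing level (percent of reads) of the listed sites in the SPN 3′ UTR against distance in bases from the first of them, in DDX41-ADARcd (top) and ADARcd alone (bottom), with 1 library each and sites more than 300 bases away left out. The highest sites in each panel are the same positions, at 16.9% and 15.1% in DDX41-ADARcd and 24.2% and 21.9% in ADARcd alone.

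RPL7L1, a ribosomal protein L7-like factor of ribosome biogenesis, had 11 sites, all in its 3′ UTR. At 42888216 there were 16 edited of 69 reads (23.2%, 13.9 to 34.9), 0 of 16 in the empty vector and 29 of 82 in ADARcd alone (35.4%, 25.1 to 46.7). At 42888380 the counts were 9 of 53 (17.0%), 0 of 10 and 12 of 85 (14.1%). The order of the libraries with ADARcd thus differed between these 2 sites, with overlapping intervals at each. TAPBP, the chaperone tapasin that loads MHC class I, had 7 of 83 reads (8.43%, 3.46 to 16.6) at 33301530, 0 of 12 in the empty vector and 4 of 94 in ADARcd alone (4.26%, 1.17 to 10.5). SAMHD1, a dNTP hydrolase, had 7 of its 10 sites in its 3′ UTR, of 1.03% to 4.08% in DDX41-ADARcd and 0 to 1.58% in ADARcd alone. The highest had 4 of 98 reads in DDX41-ADARcd and 1 of 208 in ADARcd alone. The others had 1 or 2 edited reads at depths of 82 to 97. Listing needed an edited read in DDX41-ADARcd and not in ADARcd alone, so these ranges are not on equal terms.

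Letters that recur across the transcriptome marked several of these sites. Sequence found in many genes in both orientations is what dispersed repeats such as Alu elements give, and paired repeats are the usual substrate of endogenous ADAR1. The 15 bases around a site occurred in 100 or more genes in each orientation at 42 of 3370 sites (1.25%, 0.900 to 1.68), in 15 genes. Among the 30 best-supported sites there were 6 (20%, 7.71 to 38.6), in SPN, RPL7L1 and TAPBP. These 42 sites had a median level of 1.55% and 72.5 reads, against 0.513% and 221 reads for the rest, and 35 of them were in a 3′ UTR. SPN held 8 of the 42 with 32 edited reads, RPL7L1 7 with 32, LYZ 5 with 5, the SRP RNA RN7SL2 4 with 7 and NUCKS1 3 with 3. No repeat annotation was used.

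Several coding sites of the protein synthesis machinery were edited far less in DDX41-ADARcd than in ADARcd alone. Over the 9227 positions whose reads in these libraries could be tested (Fisher's exact test, Benjamini-Hochberg), 26 were lower in DDX41-ADARcd (0.282%) and 0 were higher (0%). All 26 were members, since the other positions tested have 0 edited reads in ADARcd alone and could only be higher. Among members, only the 402 edited in ADARcd alone could be lower, so most of the 9227 positions could not be called lower. The share of 0.282% and the contrast of 26 with 0 thus follow in part from how the positions were assembled. At an unadjusted p under 0.05 in the Fisher's exact test, 39 of the 9227 positions were lower and 40 higher. Among members 39 were lower and 7 higher. The 26 sites lay in 20 genes, 18 in coding exons and 8 in 3′ UTRs, with a median of 2.5 edited reads (1 to 11) in DDX41-ADARcd. The list of DDX41-ADARcd and that of ADARcd alone were drawn against the same empty vector library. Over the 26 sites the median level was 0.547% in DDX41-ADARcd and 9.35% in ADARcd alone, and the fold between libraries ran from 4.06 to 96.1 with a median of 19.4. Because entry to the list needs an edited read in DDX41-ADARcd, positions edited by ADARcd alone with none there are not among the members.

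FTL, the ferritin light chain that stores iron, gave the smallest p. It had 11 edited of 1563 reads in DDX41-ADARcd (0.704%, 0.352 to 1.26) and 816 of 2370 in ADARcd alone (34.4%, 32.5 to 36.4), with 0 of 282 in the empty vector. The adjusted p was 6.8e-185 in the Fisher's exact test, and the edit would give the protein change K143R, counted from the start codon. RPS3A, a ribosomal protein, had 3 of 769 reads against 414 of 1104 (0.390% and 37.5%). PKM, the glycolytic pyruvate kinase, had 3 of 168 against 116 of 279 in its 3′ UTR (1.79% and 41.6%). SSR2, a subunit of the translocon-associated complex, had 1 of 77 against 73 of 154 (1.30% and 47.4%). All 4 sites passed the test, and more than 30% of reads were edited at each in ADARcd alone.

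EEF1A1, the elongation factor that brings aminoacyl-tRNA to the ribosome, had 4 such sites. At 73518602 (T261A) there were 11 of 2043 reads in DDX41-ADARcd (0.538%) against 243 of 2814 (8.64%), and at 73518527 (T286A) 7 of 1736 (0.403%) against 407 of 2287 (17.8%). The empty vector had 0 of 409 and 0 of 347 reads there. RPS2, on the small subunit, had 10 of 1803 reads at 1962502 (N235S, 0.555%) against 285 of 2270 (12.6%), and 0 of 423 in the empty vector. RPSA, the laminin receptor and small-subunit protein, had 8 of 321 (2.49%) against 57 of 563 (10.1%). SRP14, which binds the signal recognition particle RNA, had 5 of 158 (3.16%, R88G) against 45 of 203 (22.2%). P4HB, the protein disulfide isomerase of the ER, had 6 of 351 in its 3′ UTR (1.71%) against 52 of 617 (8.43%). EEF1A1, RPS2, RPSA and RPS3A have many near-identical copies in the genome, so reads may be shared among them.

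**Figure D3:**
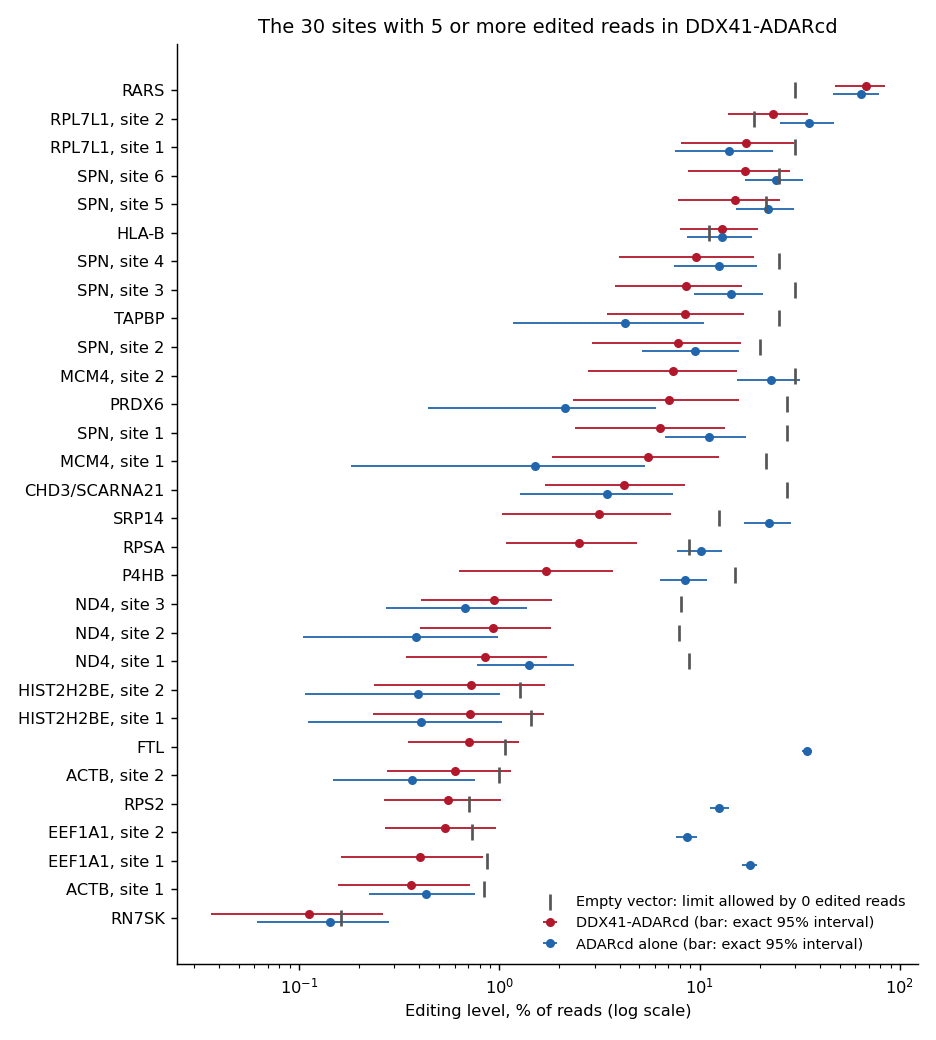
Editing level (percent of reads, log scale) of the 30 sites that had at least 5 edited reads with the fusion, in that library and in ADARcd alone with exact 95% intervals, and the upper limit that 0 edited reads allow in the empty vector (3 reads of the depth). Sites of a gene are numbered by rising level, FTL, RPS2, EEF1A1, RPSA, P4HB and SRP14 stand apart to the right in ADARcd alone, and the limit lies above the DDX41-ADARcd level at 27 of 30 sites.

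The other 23 of the 30 sites did not pass the test against ADARcd alone (lowest adjusted p 0.560, Fisher's exact test). The level was lower in DDX41-ADARcd at 11 of them and higher at 12, and a p that misses the threshold does not show equal editing. PRDX6, a peroxiredoxin, had 5 of 71 reads (7.04%, 2.33 to 15.7, R106G) and 3 of 141 in ADARcd alone (2.13%, 0.441 to 6.09). ACTB, cytoplasmic actin, had 9 of 1491 in its 3′ UTR (0.604%) and 7 of 1907 in ADARcd alone (0.367%). A coding ACTB site (K359R) had 8 of 2197 (0.364%) and 12 of 2774 (0.433%). HIST2H2BE, a histone H2B, had 5 of 689 (0.726%, I40V) and 4 of 1016 (0.394%) at the first of its sites. MCM4, a subunit of the replicative helicase, had 6 of 81 reads (7.41%) and 26 of 114 (22.8%) at the upstream 3′ UTR site, and 5 of 90 (5.56%) and 2 of 133 at the other. RN7SK, the RNA that restrains P-TEFb, had 5 of 4455 (0.112%) and 8 of 5577 (0.143%).

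Mismatches that are not A-to-G are given beside the edited reads. Listing required 0 edited reads in the empty vector but set no such limit on C or T. Positions with recurring C or T reads could therefore stay, and the G rate is not on equal terms with theirs. Summed over the listed positions, DDX41-ADARcd had C in 0.0866% of reads and T in 0.0352%, and the empty vector had 0.0883% and 0.0406%. ADARcd alone had 0.0721% and 0.0283%. The A-to-G rate of DDX41-ADARcd was 0.260%, a value raised by the choice of positions. At the 2865 sites with 1 edited read, ADARcd alone had G in 0.0509% of reads (0.0477 to 0.0543), C in 0.0698% (0.0660 to 0.0737) and T in 0.0275%. Its G rate there lay below its own C rate. At sites with 2 edited reads its G rate was 0.111% against 0.0552% for C, at 3 or 4 it was 1.61% against 0.184%, and at 5 or more 7.85% against 0.240%. The G rate of ADARcd alone thus rose with the edited reads of DDX41-ADARcd far more than its C rate did. A few sites weighed heavily in these sums. Of its 2228 G reads at sites with 5 or more, FTL gave 816, RPS2 285 and the EEF1A1 sites 407 and 243. Of its 993 at sites with 3 or 4, RPS3A gave 414, EEF1A1 200 and PKM 116.

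**Figure D4:**
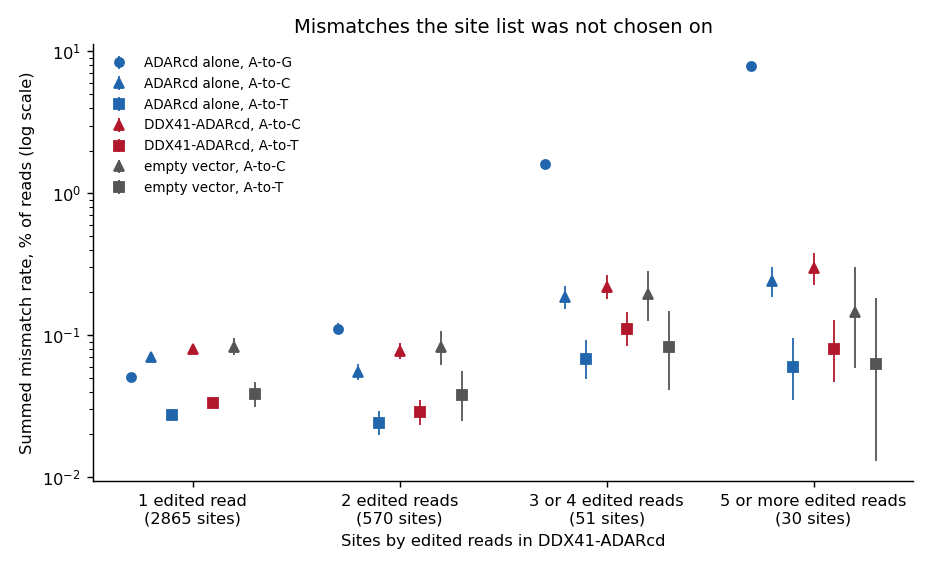
Mismatch rates (percent of summed reads, log scale, exact 95% intervals) at listed sites grouped by their edited reads in DDX41-ADARcd, for the measures that did not choose the sites. A-to-G in ADARcd alone went from 0.0509% at sites with 1 edited read to 7.85% at those with 5 or more, while A-to-C stayed between 0.0552% and 0.240% in the same library.

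Some positions had more C than G. C reads exceeded edited reads at 212 sites. RPL37, of the large ribosomal subunit, had 78 C reads and 1 edited read of 1700, and C made up 4.59% in DDX41-ADARcd, 3.20% in the empty vector and 3.16% in ADARcd alone. YBX1, a cold-shock RNA-binding protein, had 30 C and 3 edited reads of 869. At ND4, a subunit of respiratory complex I, the site at 10945 had 25 C and 8 edited reads of 853, and 10946 had 16 and 8 of 861. ADARcd alone had 19 C and 7 edited reads at 10945. At EEF1A1 73519168, DDX41-ADARcd had 23 C reads of 1641, and the other libraries had 0 of 418 and 0 of 2310.

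Bases next to the edited A differed between sites with few and with many edited reads. ADAR deaminases are known to favour U or A before and G after the edited base, and to disfavour G before it. Of 2748 sites with 1 edited read, G preceded the A at 29.9% and U at 12.1%, and U or A before with G after was found at 14.2% (12.9 to 15.6). Over every A of the same transcripts (721842) these shares were 25.7%, 17.3% and 11.9%. At 550 sites with 2 edited reads they were 30.4%, 12.7% and 13.8%. At 45 sites with 3 or 4 edited reads they were 22.2%, 24.4% and 26.7%, and at 28 sites with 5 or more 10.7%, 35.7% and 35.7% (18.6 to 55.9). In the list of ADARcd alone against the empty vector, 256 sites with 5 or more edited reads had 4.30%, 44.9% and 40.6%. The RARS and HLA-B windows have C before the listed base and are not among the 28.

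Coding sequence held most of the list. Coding exons had 2565 sites (73.0%, 71.5 to 74.4), 3′ UTRs 618 (17.6%), non-coding exons 141 (4.01%), introns 95 (2.70%) and 5′ UTRs 50 (1.42%), and 47 (1.34%) had no gene on their strand. The median level was 0.446% in coding exons at 251 reads and 0.939% in 3′ UTRs at 121 reads. Of the 30 best-supported sites, 15 were coding and 13 (43.3%, 25.5 to 62.6) were in a 3′ UTR, where their median level was 8.43% against 0.847% in coding exons. An edit would change the amino acid at 1909 of 2559 coding sites (74.6%, 72.9 to 76.3), where 75.4% of 354712 coding A of the same transcripts would. The commonest changes were lysine to arginine (279 sites), glutamate to glycine (268) and lysine to glutamate (245).

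RNAs of the processes DDX41 is known for had sites whose shares with 2 or more edited reads lay around that of the whole list. Over all sites 18.5% had 2 or more edited reads, and 3114 of 3516 had 0 edited reads in ADARcd alone. Spliceosome and SR proteins had 45 sites in 16 of 65 genes, with 7 sites (15.6%) of 2 or more edited reads. Their pooled level, edited reads over all reads at the sites, was 1.28% in DDX41-ADARcd with 52 of 4050 reads, and ADARcd alone had 0 of 6043. SRSF3, an SR splicing factor, led with 8 of 1095 reads over 6 sites, and SON, SRRM2 and RBM39 had 1 edited read at each of their sites. DExD/H-box helicases had 17 sites in 12 of 46 genes, 11.8% of them with 2 or more edited reads, and 19 edited of 1385 reads (1.37%), with 0 of 2040 in ADARcd alone. EIF4A1 had 4 of 442, and SNRNP200, the U5 snRNP helicase, 3 of 117. Of STING and interferon genes, 2 of 35 had sites: TMEM173, which encodes STING, had 2 of 142 reads, and IRF8 5 of 1015. R-loop and end-joining genes had 33 sites in 8 of 27 genes (1.27% of reads edited, 21.2% of sites with 2 or more edited reads), led by PRKDC with 8 of 524 and XRCC6 with 8 of 726. None of the sites in these 4 groups passed the test against either library. The median depth of the spliceosome sites was 76 reads and of the helicase sites 67, where 1 edited read is already over 1%. A position needs an edited read in DDX41-ADARcd to be listed, which holds for neither other library.

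DDX41 itself and ADARB1, which encodes ADAR2, had 0 sites. ADAR had 3, each with 1 edited read (of 94, 60 and 68), and 0 with ADARcd alone.

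Annotated small nucleolar RNAs had few listed sites of their own, and their host genes had more. Within 500 bases of an annotated snoRNA or scaRNA lay 183 sites (5.20%), and 12 lay inside one. The same share over all positions of the transcripts was not computed. SNORD3A, the U3 RNA of rRNA processing, held 5 of the 12, with 8 edited of 3454 reads in DDX41-ADARcd and 2 of 5419 in ADARcd alone. SCARNA21 had 7 of 167 reads (4.19%, 1.70 to 8.45) in DDX41-ADARcd, 0 of 11 in the empty vector and 6 of 174 in ADARcd alone (3.45%, 1.28 to 7.35). Host genes outside ribosomal proteins had 108 sites in 20 of 48 genes (0.401%), led by HSPA8 and NCL with 19 edited reads each. GAS5, a host transcript, had 4 edited of 114 reads at 1 site (3.51%, 0.964 to 8.74) and 0 of 157 in ADARcd alone. The nearest annotated snoRNA or scaRNA to that GAS5 site lay 2.1e+06 bases away. The annotation used may therefore lack some, and the counts of 183 and 12 may be too low. LRRC75A-AS1 had 4 of 220 and 0 of 332 at a site that overlaps an exon of LRRC75A on the other strand. Neither the GAS5 nor the LRRC75A-AS1 site passed the Fisher's exact test against ADARcd alone (adjusted p 0.560 at both). Listing needed an edited read in DDX41-ADARcd and not in ADARcd alone, and 3114 of all 3516 sites had 0 in ADARcd alone.

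Translation genes made up several of the largest groups. Small-subunit ribosomal proteins had 203 sites in 32 of 35 genes (0.153% of reads in DDX41-ADARcd, 0.498% in ADARcd alone), and 10 sites were lower than in ADARcd alone. Large-subunit proteins had 286 sites in 46 of 51 genes (0.188% and 0.0479%), with 1 lower site, in RPL15. Translation factors had 187 sites (0.173% and 0.608%) with 7 lower. Those 7 were in EEF1A1, EEF1G, EEF2 and TPT1. Aminoacyl-tRNA synthetases had 12 sites in 4 of 40 genes at 3.75%, and 1.57% without RARS. TARS gave 7 of 452 reads, EPRS 5 of 344 and IARS 1 of 30, with 0 in ADARcd alone. Over all sites the values were 0.260% and 0.197%, with 26 lower sites. Listing needs an edited read in DDX41-ADARcd and not in ADARcd alone, so the paired values are not on equal terms.

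Other abundant groups had low levels at great depth. ACTB had the most sites, 68, and CAP1 had 58. Then came EEF1A1 (45 sites), MALAT1 (41), YBX1 (37) and TALAM1 (36), with 27 sites in each of ND4, ND5 and PPT1 and 25 in HNRNPU. CAP1, a cyclase-associated actin regulator, and PPT1, a lysosomal thioesterase, overlap on chromosome 1. The 40 to 45 Mb segment that holds them and YBX1 had 223 sites (6.34%). Actins and actin-binding proteins had 310 sites in 35 of 47 genes (0.121%) and HNRNP proteins 124 in 22 of 34 (0.175%). Monocyte granule and lysosome genes had 99 in 16 of 29 (0.211%), led by PPT1, SRGN and PRTN3. MALAT1 and its antisense transcript TALAM1 had 0.403% and 0.392% of reads edited in DDX41-ADARcd. Since 203 sites have an annotated exon on the other strand and the library's strandedness is not given, such pairs cannot be told apart.

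Chaperones had 117 sites in 21 of 32 genes with 143 edited of 31095 reads (0.460%) and 2 of 42665 in ADARcd alone. Each listed site needed an edited read in DDX41-ADARcd, a condition not set for ADARcd alone, so such pairs are not on equal terms. Over all sites the levels were 0.260% and 0.197%, and 3114 of 3516 sites had 0 edited reads in ADARcd alone. HSP90B1, the ER member of the HSP90 family, had 3 of 159 at its highest site (1.89%, E317G), and CCT5, of the TRiC chaperonin, 3 of 221 (1.36%). ATF4, a transcription factor of the stress response, had 4 of 126 (3.17%, Q128R) and 1 of 208 in ADARcd alone. SRP, translocon and ER folding genes had 76 sites (0.582% and 0.709%), of which 3 were lower than in ADARcd alone, in SRP14, P4HB and SSR2. MHC class I genes had 34 sites in 6 of 17 genes (0.861%, and 0.632% without the HLA-B site). Known A-to-I substrates had 33 sites in 5 of 32 genes (0.654% and 0.626%), with NUCKS1 at 20 edited of 2889 reads and AZIN1, a classical recoding target, at 2 of 121. Of the 59 edited reads of ADARcd alone in this group, 48 were at 1 NUCKS1 site, with 2 of 167 reads in DDX41-ADARcd against 48 of 276, which was among the 26 lower sites. Histones had 56 sites (0.392%) and glycolytic enzymes 65 (0.323%). Ferritin and iron genes had 19 (0.177% and 3.48%), and MCM and proliferation genes 67 (0.949%).

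**Figure D5:**
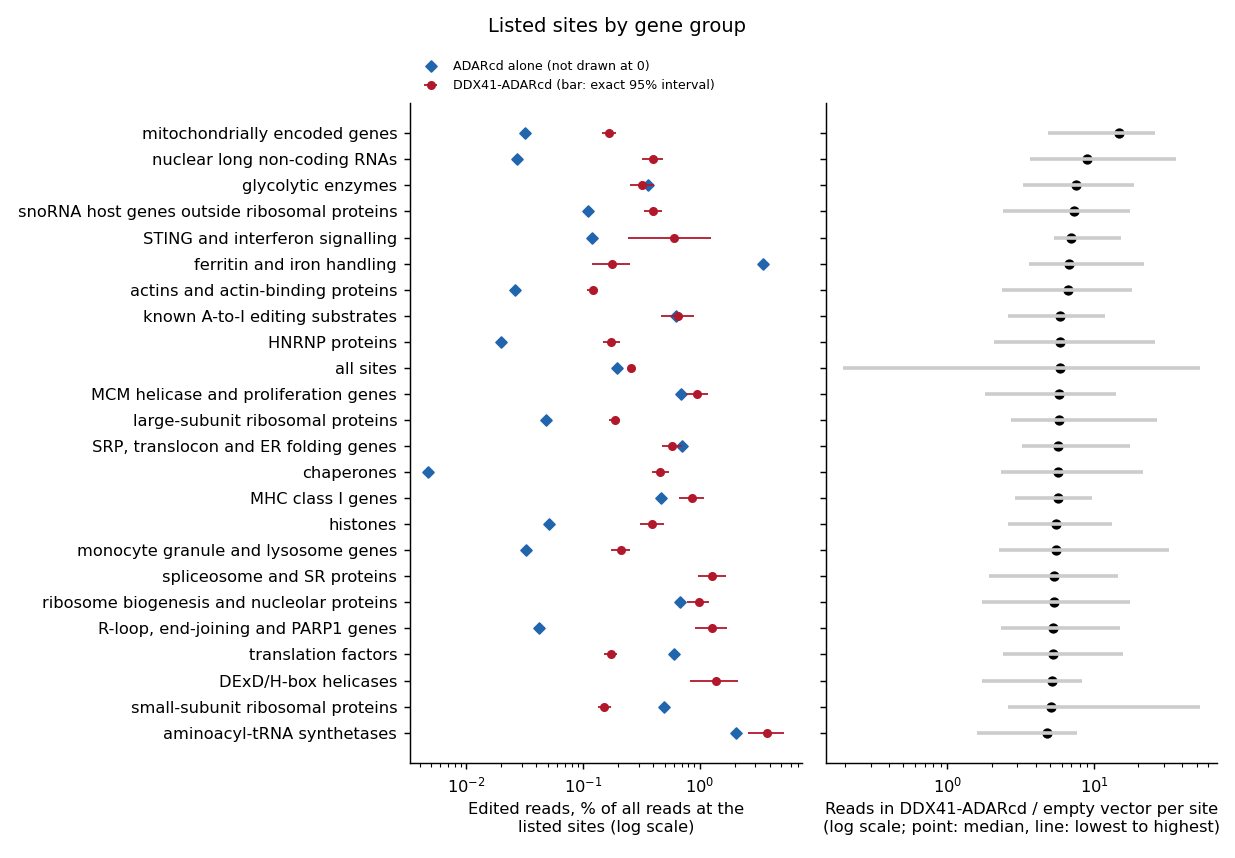
Gene groups ordered by read ratio. The left panel gives edited reads as percent of all reads at a group's sites (log scale) in DDX41-ADARcd with exact 95% intervals and in ADARcd alone, and the right panel the ratio of reads in DDX41-ADARcd over the empty vector per site (log scale, median, lowest and highest). Mitochondrially encoded genes have the highest median ratio, 14.7, against 5.82 over all sites. Groups with 0 edited reads in ADARcd alone have no point for it, and 3114 of all 3516 sites have 0 there.

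Total reads at the same positions also differed, by a factor that varied from gene to gene. The ratio of reads in DDX41-ADARcd over the empty vector had a median of 5.82 over sites (quartiles 4.30 and 8.08). Over the 220 genes with 5 or more sites the median was 6.13, and the 5th and 95th percentiles were 3.70 and 12.4. The highest ratios were those of ND2 at 20.8, ND1 and CYTB at 19.4, RPLP1 at 18.7 and ATP6 at 18.6, and 7 of the top 10 genes were mitochondrial. Against ADARcd alone the ratio of ND2 was 1 and that of ND1 0.870, with 0.687 over all sites. Mitochondrial genes had 163 sites in 12 genes (0.168%). A listed position needs 10 reads in the empty vector, so genes with few reads there are under-represented. These are totals of 1 library each, without normalization. Sequencing depth, cell number and RNA per cell cannot be told apart, and no cause was tested.

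HFM1, a meiotic helicase gene, had the lowest ratio, 1.47 (0.647 to 2.02 over 24 sites), and 1.61 against ADARcd alone. Its sites were intronic, and 13 lay within 100 bases. At 91387462 there were 4 edited of 532 reads (0.752%, 0.205 to 1.91), 0 of 426 in the empty vector and 0 of 318 in ADARcd alone. DDX41-ADARcd also had 4 C and 6 T reads there, the empty vector 2 C and 3 T, and ADARcd alone 0 C and 4 T. Over the stretch of 13 sites DDX41-ADARcd had 21 edited reads beside 63 C and 64 T reads. SLCO5A1, also intronic in its densest stretch, had a ratio of 2.54, the 28S and 45S ribosomal RNA names RNA28SN2 and RNA45SN2 shared the same 9 sites at 2.55, and RN7SK had 2.58. RN7SK had 13 sites within 91 bases at 0.0133% to 0.0395%, and RN7SL2, an SRP RNA, 11 within 100 bases, both at depths where 1 edited read lists a position at a very low level. ACTB and RPPH1, the RNase P RNA, had 9 sites each in their densest stretch.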

How the data were processed

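The deposited site lists hold, per the file headers, counts per base (A, T, C or G) and total counts at a position in each of 2 libraries, without normalization. The submitters' processing notes name CASAVA 1.4, FastQC 0.11.7, STAR 2.5 and mm10, with no role. For the site caller and strandedness, nothing is given in the sources used here. Columns carry no library name and were assigned from the list's title. Coordinates fit GRCh38: 99.9% of sites on GENCODE 29 transcripts have A.

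The 3578 entries gave 3516 sites. Reads of ADARcd alone came from the other lists at the same positions. Python 3.11.15, scipy 1.17.1 and pandas 2.3.3 were used. Edited and other reads were compared by a two-sided Fisher's exact test where each library had 10 or more reads, with Benjamini-Hochberg adjustment over 3512 sites (empty vector) or 9227 positions (ADARcd alone). The tests were tried on simulated data. Intervals are exact Clopper-Pearson 95% intervals, medians have order-statistic intervals, and a count of 0 has a limit of 3 reads.

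Members and gene lists were chosen with earlier results of these data known. Named were sites with 5 or more edited reads, the 10 genes richest in sites, the 10 of highest level at 20 or more reads and 3 or more edited reads, up to 4 members of each list, DDX41, ADAR and ADARB1, the 5 genes at each end of the read ratio, the 5 densest stretches and the 10 sites of smallest p. RPL37, SAMHD1, RPPH1 and the sites lower than ADARcd alone were named after their values were seen. Some items are not reported here. Alternatives changed the read minimum, edited reads, adjustment, mitochondrial sites, regions and neighbours.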

Additional observations from a re-analysis of the deposited data

How the results depend on the processing

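No paired analysis was possible because each group has 1 library. The count of 0 sites above the empty vector did not change under any alternative run, and the count lower than ADARcd alone was 26 and became 20 with Bonferroni adjustment, 19 with reads halved and 27 with 20 or more reads in each library. The median level was 0.267% with 20 or more reads in each library, 0.552% without mitochondrial sites and 0.836% with 2 or more edited reads. With 2 or more edited reads, 3′ UTRs had 20.9% of sites, coding exons 67.9% and introns 3.38%, and U or A before with G after was found at 15.7%. That share was 35.7% with 5 or more edited reads, and 3.20% when only U was taken before. The pooled A-to-G rate was 0.195% at sites with 100 or more reads and 0.248% without sites at 5% or more. Pooled levels of 22 of 23 gene groups moved when only sites with 2 or more edited reads were kept, 10 with 20 or more reads in each library, and 2 without the group's best site. The causes were not tested. By the regions named in the deposited list, introns had 2.65% of sites. Coding exons and 3′ UTRs could not be recounted that way, since it gives only exon or intron. Leaving out positions with another reference letter, or the recurring 15 bases, was chosen after seeing the data. The depth of the empty vector limits every comparison with it.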
